A study of Aspergillus nidulans with 24 samples.

Results

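The carbon source response of Aspergillus nidulans without areB was measured in the presence of ammonium, as messenger RNA in areBΔ mycelium grown on fructose against areBΔ mycelium grown on glucose. Its libraries were taken by their labels, as 2 of the 8 strain and medium groups. It took 6 of the 24 RNA sequencing libraries, 3 biological replicates on each sugar, and covered all 8728 genes in the authors' table. The areBΔ strain carried the genotype areBΔ::A.f. pyrG, pyrG89; argB2; nkuAΔ::argB, pabaB22; riboB2, so that every areBΔ culture also lacked nkuA, a DNA end-joining gene. The fructose medium held 0.1% fructose and the glucose medium 1% glucose, both with 10 mM ammonium tartrate. The strain with areB, called wild type here, carried the marker biA1 and was grown in the same media. A second pair of areBΔ groups had 5 mM urea in place of ammonium tartrate. Each of these other groups also held 3 libraries. All mycelia grew in minimal medium for 9 to 11 h at 37 °C.

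AreB is a GATA zinc finger factor of nitrogen metabolism in this fungus and shares its type of DNA-binding domain with AreA, the activator that turns on the use of poor nitrogen sources. CreA, a zinc finger repressor, shuts off genes for the use of other carbon sources while glucose is plentiful, which is called carbon catabolite repression. By the labels 1% glucose represses and 0.1% fructose does not, and 10 mM ammonium tartrate represses the use of other nitrogen sources. The question put to these groups is which part of the carbon response is seen when areB is missing. The sugars differed in kind and in concentration, and these cannot be told apart. Strain background and areB likewise cannot be told apart, because the strains also differ at nkuA and at the marker loci. In such bulk RNA, fewer cells of a type and less RNA per cell cannot be told apart either.

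A level below is the mean of normalized counts over the libraries of a group, as the authors deposited it. Levels are not divided by gene length, so only the same gene is compared between groups. No values of single libraries were used, and depth per library, an error for each mean and whether single libraries of the sugars overlapped in level are unknown. No p-value could therefore be given for fructose against glucose. A gene was counted as higher or lower on fructose when log2((mean on fructose + 1)/(mean on glucose + 1)) was at least 1 or at most -1, a 2-fold difference, and the higher mean was at least 10. All log2 ratios below are on this scale, which understates the difference of low genes. For scale, each gene was set beside a standard error recovered from the authors' deposited comparisons of areBΔ over wild type, taken as the larger of those for the ammonium media. That error also comes from 3 libraries against 3, and its median was 0.44 on the log2 scale, with quartiles of 0.32 and 0.59. It belongs to moderated fold changes, drawn towards 0, while the ratios here are plain ratios of means. It may thus be too small for them. For 7328 genes the error on glucose was borrowed from the gene's other comparisons, those with urea among them. As a check of the labels, areB and nkuA were listed at 0 in every areBΔ group, while wild type means were 75.4 on fructose and 73.5 on glucose for areB, and 113 on fructose and 103 on glucose for nkuA. The sums of all means were 2.81e+06 on fructose and 2.91e+06 on glucose in areBΔ.

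Without areB the mycelium still differed widely between the sugars. Of the 7842 genes that passed the filter, 853 were higher on fructose, 10.9% of them, and 405 were lower, 5.16%. These shares over all genes are the background for every list count below. Both directions together took 16% of the genes, against a median log2 ratio over all genes of 0.04 with quartiles of -0.28 and 0.41. The response was uneven in size. At least 4-fold differences were seen for 360 genes that were higher (4.59%) and 63 that were lower (0.803%), and at least 16-fold ones for 81 that were higher and 1 that was lower, the glucose transporter gene mstE. When the log2 ratio was also asked to exceed 2 of the recovered standard errors, 651 of 7749 genes were higher (8.4%) and 298 lower (3.85%). These counts may be too high, because the errors are those of moderated fold changes and the ratios are not moderated. The genes that were higher on fructose were mostly low on glucose, with a median level of 71.3 on fructose and 14.1 on glucose. They made up 5.95% of the summed level on fructose and 1.30% on glucose. The genes that were lower on fructose had a median level of 35.9 on fructose and 104 on glucose, and took 2.61% of the sum on fructose and 7.40% on glucose.

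**Figure D1:**
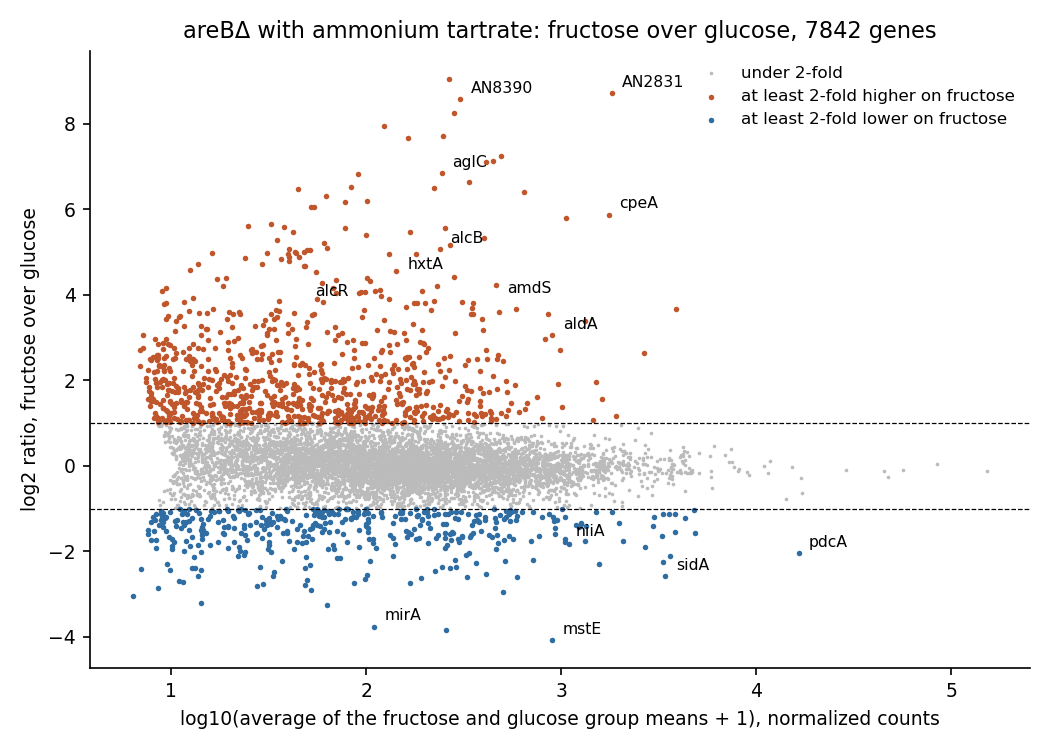
Log2 ratio of fructose over glucose in areBΔ with ammonium tartrate against the log10 of the average of the group means plus 1, with 1 point for each of 7842 genes and dashed lines at 2-fold. The 853 genes above the upper line reach far higher ratios than the 405 below the lower line do in the other direction, and most are genes of middle or low level.

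AN2831, which has domains of a membrane transporter, had the largest ratio on this scale among genes above 0 on glucose, and which of them came first depended on the pseudocount. It had 3626 normalized counts on fructose and 7.60 on glucose in areBΔ, a log2 ratio of 8.72 beside a recovered standard error of 0.81. AN8390, of the GPR1/FUN34/YaaH membrane protein family and annotated as induced by ethanol, had 605 on fructose and 0.594 on glucose, a log2 ratio of 8.57. With a pseudocount of 0.1 the log2 ratios were 9.77 for AN8390 and 8.88 for AN2831. AN8351, with no product name in the table, had 561 on fructose and 0.840 on glucose, a log2 ratio of 8.26. Of the genes without a symbol, AN9010, an ortholog of carboxylic acid transporters, and AN8912, an ortholog of inositol importers, were listed at 0 on glucose and had means of 529 and 244 on fructose. In all, 9 of the 853 higher genes were listed at 0 on glucose, and no fold is given for them.

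Among genes with a symbol, aglC had the largest log2 ratio with a pseudocount of 1, and fatC stood above it with a pseudocount of 0.1, at 7.29 for fatC and 7.18 for aglC. The gene aglC encodes an alpha-galactosidase and had 481 on fructose and 3.21 on glucose in areBΔ, a log2 ratio of 6.84 beside a recovered error of 0.80. The fatty acyl-CoA synthetase gene fatC had 101 on fructose and 0.545 on glucose, and the polygalacturonase gene pgxA had 95.7 on fructose and 1.93 on glucose. The catalase-peroxidase gene cpeA reached 3438 on fructose, against 57.6 on glucose, a log2 ratio of 5.88. The carboxylic acid transporter gene jenB, whose product takes up lactate, succinate, pyruvate and malate, had 104 on fructose and 3.52 on glucose. In each of these genes the glucose mean was a small part of the fructose mean. The hyphal mannoprotein gene mnpA had 69.9 on fructose and 1.48 on glucose, and the cytochrome P450 gene CYP552A2 had 91.4 on fructose and 1.88 on glucose.

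At the other end stood transport of glucose and of iron carriers. The low-affinity glucose transporter gene mstE had 99.4 on fructose and 1685 on glucose in areBΔ, a log2 ratio of -4.07 beside a recovered error of 0.76. The siderophore transporter gene mirA had 14.1 on fructose and 204 on glucose, a log2 ratio of -3.76. Of the genes without a symbol, AN7521 had 32.8 on fructose and 480.3 on glucose, and the major facilitator gene AN4119 had 42.7 on fructose and 290.0 on glucose. Each of these genes stood several times above its fructose level on glucose. The stearic acid desaturase gene sdeB had 1346 on fructose and 5844 on glucose (log2 ratio -2.12). The eisosome gene nce102 had 190.2 on fructose and 737 on glucose (log2 ratio -1.95), and rfeA, a putative regulator of secondary metabolism, had 253 on fructose and 1176 on glucose (log2 ratio -2.21).

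Genes for the use of ethanol were the list with the highest median. In this fungus the activator AlcR turns on alcohol and aldehyde dehydrogenase genes, and CreA represses both alcR and its targets. Of 8 ethanol genes past the filter, 7 were higher on fructose (87.5%) and 1 was lower (12.5%) in areBΔ. Their median log2 ratio was 2.89, against 0.04 over all genes. The activator gene alcR had 177 on fructose and 9.58 on glucose, a log2 ratio of 4.07 beside a recovered error of 0.65. The alcohol dehydrogenase gene alcB had 463 on fructose and 12.8 on glucose (log2 ratio 5.08). Both are many times their glucose level. Alcohol dehydrogenase I, encoded by alcA, had 716 on fructose and 108 on glucose (log2 ratio 2.72). The aldehyde dehydrogenase gene aldA had 1607 on fructose and 192 on glucose (log2 ratio 3.06). Both enzymes of the first steps were thus higher together with their activator. The cluster member alcP had 82.7 on fructose and 1.63 on glucose. The cluster members alcS and alcU were higher by smaller ratios, 1.76 and 1.16. The one lower member was the alcohol dehydrogenase III gene alcC, with 2241 on fructose and 4909.8 on glucose (log2 ratio -1.13). Of the 7 higher members, 6 were past 2 recovered errors, and alcU and the lower alcC lay within them.

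Acetate enters metabolism as acetyl-CoA and is turned into sugar through the glyoxylate cycle and gluconeogenesis. Of 14 genes of this list, 6 were higher on fructose (42.9%) and 0 lower in areBΔ. All 14 had a ratio above 0, with a median of 0.89. The acetyl-CoA synthetase gene facA had 2393 on fructose and 611 on glucose (log2 ratio 1.97). The gluconeogenic genes acuF, for phosphoenolpyruvate carboxykinase, and acuG, for fructose-1,6-bisphosphatase, had log2 ratios of 2.39 and 1.63. For acuF the means were 391 on fructose and 73.9 on glucose, and for acuG 465 on fructose and 149.5 on glucose. The mitochondrial dicarboxylate carrier gene acuL had 172 on fructose and 22.7 on glucose. Below 2-fold lay facB, the activator of acetate genes, with 344 on fructose and 218 on glucose (log2 ratio 0.66), and acuD, for isocitrate lyase, with 359 on fructose and 187 on glucose (log2 ratio 0.94).

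Sugar transporter genes differed in both directions. Of 10 named transporter genes, 4 were higher on fructose (40%) and 1 lower (10%) in areBΔ. The high-affinity hexose transporter gene hxtA had 536 on fructose and 24.1 on glucose (log2 ratio 4.42), and mstC, a high-affinity glucose transporter gene, had 1697 on fructose and 259 on glucose (log2 ratio 2.71). These lie opposite to the low-affinity mstE. The putative xylose transporter gene xtrE had 331 on fructose and 84.1 on glucose, and lacpA, of a lactose-induced transporter, had 29.4 on fructose and 6.03 on glucose. A wider list drawn from product words held 25 sugar transporters past the filter, with a median of 1.42. Of these, 13 were higher (52%) and 1 was lower (4%). AN10891, an ortholog of xylose and glucose importers, had 818 on fructose and 4.95 on glucose (log2 ratio 7.10). AN8347, an ortholog of cellobiose transporters, had 65.3 on fructose and 3.60 on glucose.

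Enzymes that cut plant polymers were spread in both directions. Of 57 enzyme and regulator genes past the filter, 24 were higher on fructose (42.1%), 6 were lower (10.5%) and 27 were neither. Their median was 0.62. The list has 68 members in the table, and the rest were under the filter. The beta-glucosidase gene bglA had 815 on fructose and 134 on glucose (log2 ratio 2.60), and the alpha-glucosidase gene agdB had 2405 on fructose and 809.9 on glucose (log2 ratio 1.57). The arabinanase gene abnC had 54.9 on fructose and 1.14 on glucose, and had no recovered error. The regulator genes amyR of starch, xlnR of xylan, araR of arabinan and clrB of cellulose breakdown had log2 ratios of 1.64, 1.08, 1.17 and 1.30. The pectinesterase gene pmeA went the other way, with 26.1 on fructose and 169 on glucose (log2 ratio -2.65). Its fellow gene pmeB had 43.5 on fructose and 5.78 on glucose (log2 ratio 2.72). Among 119 glycoside hydrolases found by product words, 38 were higher (31.9%) and 12 lower (10.1%), with a median of 0.46. Of 14 genes for pentose, galactose and polyol use, 4 were higher (28.6%) and 1 was lower (7.14%). The arabinitol dehydrogenase gene ladA had 345 on fructose and 37.4 on glucose (log2 ratio 3.17), and xdhA, for xylitol dehydrogenase, had 328 on fructose and 134 on glucose (log2 ratio 1.29).

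Fatty acids are broken down in peroxisomes and mitochondria, under the activators FarA and FarB. Of 20 genes, 7 were higher on fructose (35%) and 0 lower in areBΔ, with a median of 0.84. The acyl-CoA dehydrogenase gene acdA had 886 on fructose and 72.7 on glucose (log2 ratio 3.59). The peroxisomal beta-oxidation gene foxA had 278 on fructose and 73.1 on glucose (log2 ratio 1.92). Both regulator genes were higher, farB with 316 on fructose and 53.5 on glucose and farA with 133 on fructose and 61.8 on glucose. The methylcitrate synthase gene mcsA, of propionyl-CoA disposal, had 40.01 on fructose and 10.4 on glucose (log2 ratio 1.84). The peroxisome assembly gene pexA had 975 on fructose and 351 on glucose. A wider list by product words held 79 genes, 27 higher (34.2%) and 4 lower (5.06%), with a median of 0.68. It held the acyl-CoA synthetase genes AN4659, with 782 on fructose and 18.4 on glucose, and AN4201, with 647 on fructose and 54.2 on glucose.

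**Figure D2:**
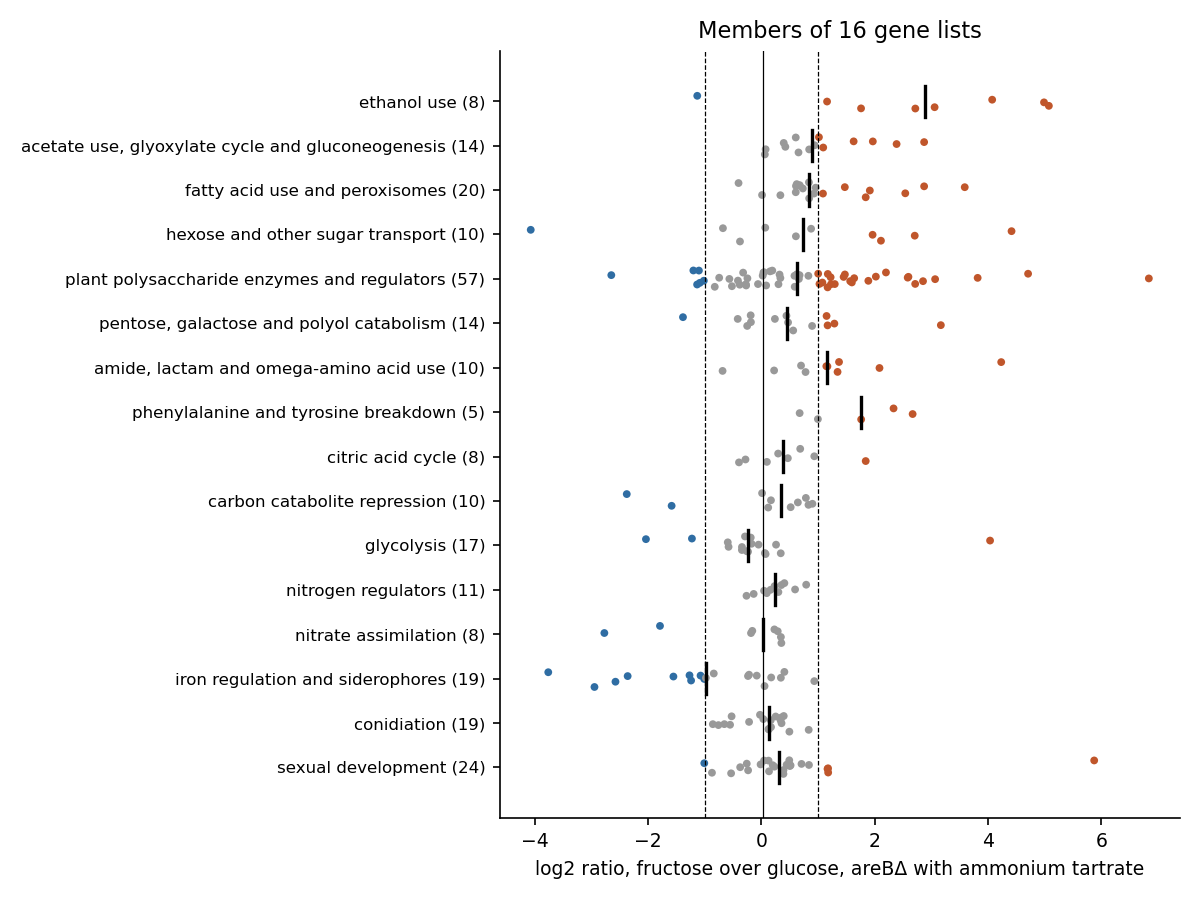
Log2 ratio of fructose over glucose in areBΔ with ammonium tartrate for the members of 16 gene lists that passed the filter, with 1 point a gene, the number of members in brackets, thick marks at list medians, the thin line at the median of all genes and dashed lines at 2-fold. Points of the ethanol list lie mostly right of the right dashed line, and points of the iron list reach furthest to the left as a group. No member of the conidiation list or the nitrogen regulator list lies beyond either dashed line.

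Central carbon metabolism held single genes past 2-fold. Of 17 glycolysis genes, 1 was higher (5.88%) and 2 were lower (11.8%) on fructose in areBΔ, against 10.9% and 5.16% over all genes, with a median of -0.23. The pyruvate decarboxylase gene pdcA, of ethanol formation, had 6467 on fructose and 26537 on glucose (log2 ratio -2.04, recovered error 0.71). The phosphofructokinase gene pfkA had 2581 on fructose and 6034 on glucose (log2 ratio -1.22), within 2 of its recovered errors of 0.65. The higher member was gpdC, a putative glyceraldehyde-3-phosphate dehydrogenase gene with no recovered error, with 131 on fructose and 7.02 on glucose. Of 8 genes of the citric acid cycle list, only mcsA passed 2-fold (12.5%), near the share over all genes. It is the methylcitrate synthase gene counted above in the fatty acid list. No other member passed 2-fold, and the aconitase gene acoA had 951 on fructose and 497 on glucose (log2 ratio 0.93). None of the 3 pentose phosphate genes passed 2-fold. Of 55 genes for electron transport and ATP synthase found by product words, 3 were higher and 0 lower, with a median of -0.11. The higher share, 5.45%, was below that over all genes. The external NADH dehydrogenase gene ndeA lay just inside the limit, with 642 on fructose and 1256 on glucose (log2 ratio -0.97).

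The genes of the repression machinery itself showed lower arrestin genes. Of 10 genes, 0 were higher and 2 lower (20%) on fructose in areBΔ. These were apyA, with 91.7 on fructose and 480.1 on glucose (log2 ratio -2.38), and creD, with 126 on fructose and 378 on glucose (log2 ratio -1.58), both of arrestin-like proteins that work with a ubiquitin ligase. The repressor gene creA had 72.9 on fructose and 50.6 on glucose, a log2 ratio of 0.52 within its recovered error of 0.65. The deubiquitination genes creB and creC had log2 ratios of 0.83 and 0.90, and creC had no recovered error.

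**Figure D3:**
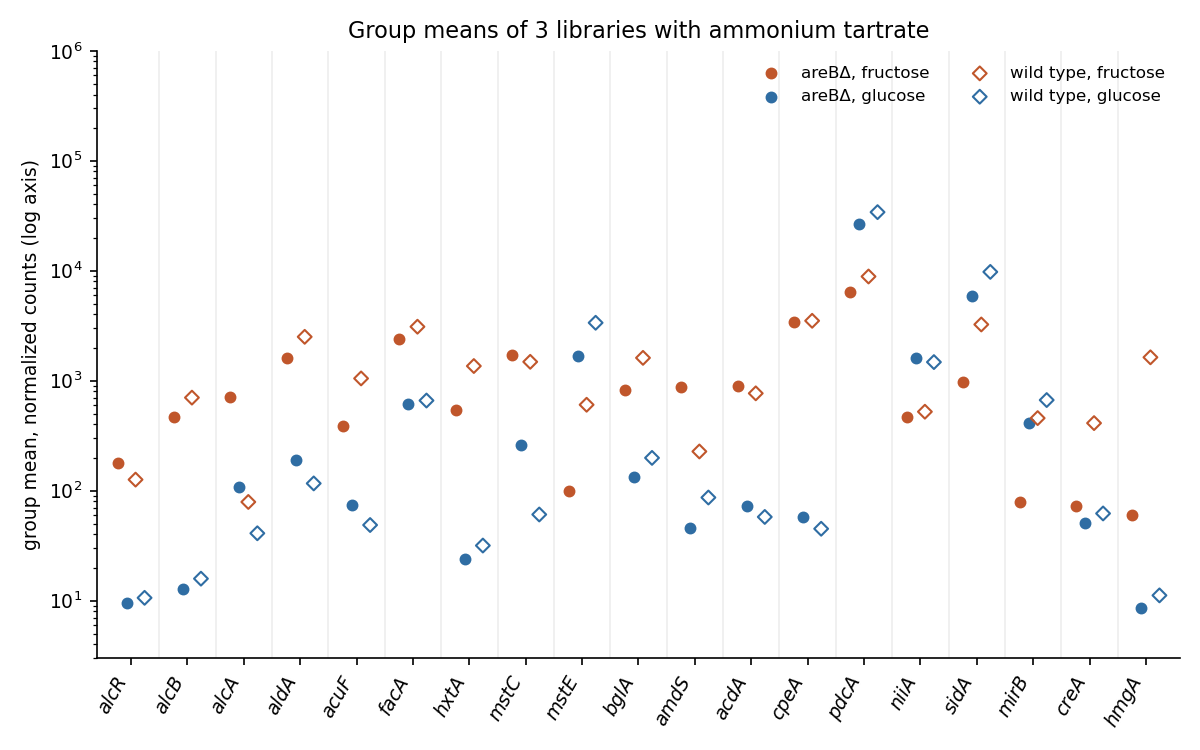
Group means in normalized counts, on a log axis, of 19 genes with ammonium tartrate, with filled circles for areBΔ, open diamonds for wild type, orange for fructose and blue for glucose. In areBΔ all genes but mstE, pdcA, niiA, sidA and mirB stand higher on fructose. The distance between the sugars is wider in wild type than in areBΔ for creA, hmgA and others such as acuF and mstC. It is narrower in wild type for others such as alcA and amdS.

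Ammonium was present in both media, yet several genes for the use of other nitrogen sources differed between the sugars. Of 10 amide, lactam and omega-amino acid genes, 6 were higher on fructose (60%) and 0 lower in areBΔ, with a median of 1.16. The acetamidase gene amdS, whose product yields both acetate and ammonium, had 881 on fructose and 45.8 on glucose (log2 ratio 4.23, recovered error 0.79). The general amidase gene gmdA had 407 on fructose and 95.2 on glucose (log2 ratio 2.09). The regulator genes amdA and amdX had log2 ratios of 1.37 and 1.15. The list thus has enzymes and regulators among its higher members. The permease gene gabA and the transaminase gene gatA, both of GABA use, had ratios of 1.35 and 1.17. Of the 6 higher members, 3 were past 2 recovered errors, and amdX, gabA and gatA lay within them.

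Of 5 genes of phenylalanine and tyrosine breakdown, 3 were higher (60%) and 0 lower on fructose in areBΔ. They were the neighbours hmgA, fahA and maiA, and none of these has a recovered error. Homogentisate dioxygenase, encoded by hmgA, had 59.8 on fructose and 8.54 on glucose (log2 ratio 2.67). For fahA the means were 22.7 on fructose and 3.70 on glucose, and for maiA 15.8 on fructose and 3.95 on glucose. Of 8 proline and arginine genes 1 was higher, 12.5%, near the 10.9% over all genes. This was prnC, for pyrroline carboxylate dehydrogenase, with 55.5 on fructose and 8.19 on glucose. The putative proline dehydrogenase gene prnD, at 28.1 on fructose and 14.3 on glucose, stayed under 2-fold. Of 15 urea and purine genes, 3 were higher (20%) and 0 lower. They were the transporter genes furE and furG and the xanthine dioxygenase gene xanA, at low levels of 12.2, 15.2 and 32.2 on fructose. Among the quinate genes, qutD was higher and qutB lower, with log2 ratios of 1.17 and -1.22.

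The nitrate and nitrite reductase genes went the other way. Of 8 nitrate assimilation genes, 0 were higher and 2 lower (25%) on fructose, and the median was 0.04, as over all genes. The nitrate reductase gene niaD had 6.57 on fructose and 50.7 on glucose (log2 ratio -2.77), and the nitrite reductase gene niiA had 467 on fructose and 1617 on glucose (log2 ratio -1.79). The nitrogen regulator list held 11 genes past the filter and was wider than its name. Among them were lreA, lreB, nsdD and sreA, the last also a member of the iron list. None of the 11 passed 2-fold, and areA had 142 on fructose and 156 on glucose (log2 ratio -0.14). None of 5 genes for ammonium uptake and assimilation passed it either, from gltA, of glutamate synthase, at 0.89 to the ammonium transporter gene meaA at -0.83.

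Iron uptake was the list with the lowest median. Fungi of this genus take up iron with siderophores, small chelators made from hydroxylated ornithine by the SidA monooxygenase and its partners. Of 19 iron genes, 0 were higher and 9 lower (47.4%) on fructose in areBΔ, with a median of -0.98. The first gene of synthesis, sidA, had 982 on fructose and 5852 on glucose (log2 ratio -2.57, recovered error 0.76). The gene sidI, of triacetylfusarinine synthesis, had 115 on fructose and 893 on glucose (log2 ratio -2.95). The peptide synthetase genes sidD and sidC had log2 ratios of -1.55 and -1.07, with 1939.7 on fructose and 5688 on glucose for sidD. Synthesis genes of both siderophore types were thus lower on fructose by the fold. However, sidC lay within 2 of its recovered errors of 0.55, and its log2 ratio in wild type was 0.01. Of the 9 lower genes of the list, 7 were past 2 recovered errors. The transporter gene mirB had 79.1 on fructose and 410.0 on glucose (log2 ratio -2.36). The regulator gene hapX, of the iron starvation response, had 17.02 on fructose and 42.4 on glucose (log2 ratio -1.27). The remaining lower members were sidH and amc-1, with log2 ratios of -1.01 and -1.24.

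Genes found by words for ergosterol synthesis also held more lower than higher members. Of 46, 1 was higher (2.17%) and 8 were lower (17.4%) on fructose in areBΔ, against 10.9% and 5.16% over all genes. The list median was -0.07. The words do not show that each gene makes sterol, and the lower member AN0608 stands between sidI and sidC. The sterol methyl oxidase gene AN8907 had 1153 on fructose and 5497 on glucose (log2 ratio -2.25), and AN4094, for a sterol reductase, had 726 on fructose and 1936 on glucose (log2 ratio -1.41). Of 23 cell wall synthesis genes, 1 was higher, mnpA, and 2 were lower, 8.70%, with a median of -0.07, near that of all genes. The lower ones were the chitin synthase gene chsF, with 52.96 on fructose and 148 on glucose, and agsB, of the main alpha-1,3-glucan synthase, with 2403 on fructose and 5283 on glucose. Cytochrome P450 genes held members past 2-fold in both directions, 13 of 49 higher (26.5%) and 11 lower (22.4%), each a larger share than over all genes.

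Secondary metabolite genes were mixed. In the penicillin list, aatB was higher, with 265 on fructose and 54.5 on glucose (log2 ratio 2.26). The first enzyme of that pathway, encoded by acvA, was lower, with 21.4 on fructose and 53.05 on glucose (log2 ratio -1.27), and so was ipnA, with 2.84 on fructose and 11.8 on glucose. Of 24 genes of other clusters, 6 were higher (25%) and 4 lower (16.7%), with log2 ratios between -1.72 for dbaA and 2.93 for tdiC. Of 16 light, velvet and LaeA-like regulator genes, only silA passed 2-fold, as lower (6.25%). This light response regulator gene had 112 on fructose and 309 on glucose (log2 ratio -1.45).

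Spore and fruiting body genes served as a check of the tissue label. Of 11 markers fixed for conidia and fruiting bodies, 7 were measured, and rodA, dewA, ivoB and lsdA were not analysed here. The conidiation master regulator gene brlA had 1.49 on fructose and 0.248 on glucose, and the mutanase gene mutA had 0.234 on fructose and 0.840 on glucose in areBΔ. Both were near 0 on either sugar, but not all markers were. The conidial genes yA and wA had 98.7 and 36.5 on fructose, and 77.8 and 28.3 on glucose. The fruiting body marker cpeA, given below, was far higher on fructose. Summed over brlA, abaA, wetA, wA and yA the level was 153 on fructose and 125 on glucose. None of 19 conidiation genes passed 2-fold. Of 24 sexual development genes, 4 were higher (16.7%) and 1 was lower (4.17%), against 10.9% and 5.16% over all genes. The largest ratio was that of cpeA, 3438 on fructose against 57.6 on glucose, which is also a fruiting body marker and a redox gene. The zinc cluster regulator gene nosA had 98.6 on fructose and 42.97 on glucose (log2 ratio 1.18), and the fatty acid oxygenase genes ppoC and ppoB had log2 ratios of 1.18 and -1.01. Only 1 of the 4 higher sexual development genes was past 2 recovered errors, and the lower one was not. Of 16 redox genes, 4 were higher (25%) and 1 was lower (6.25%). Among the higher ones was catC, with 71.3 on fructose and 15.7 on glucose. The cytochrome c peroxidase gene ccp1 had 532 on fructose and 156 on glucose. The peroxidase gene prxA was lower, with 484 on fructose and 1111 on glucose. The regulator gene of extracellular proteases, xprG, had 121 on fructose and 29.1 on glucose (log2 ratio 2.02). Its list of 10 had 2 higher (20%) and 0 lower.

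Ion pump genes and a small heat shock gene were among the other large differences. The putative cation-transporting ATPase genes enaA and enaB had log2 ratios of 3.89 and 2.49 in areBΔ, enaA with 244 on fructose and 15.5 on glucose and enaB with 791 on fructose and 140.0 on glucose. AN5781, of a 30 kDa heat shock protein, had 7181 on fructose and 563 on glucose (log2 ratio 3.67). It was the only one of 41 chaperone genes found by product words to pass 2-fold. In a separate list of 15 cytosolic and organelle chaperone genes, 0 were higher and 1 was lower (6.67%), with a log2 ratio of -1.20. Of 22 genes of stress signalling, trehalose and glycerol, 3 were higher (13.6%) and 1 lower (4.55%), shares near those of all genes, 10.9% and 5.16%. Among them treA, of trehalase, had 2639 on fructose and 1183 on glucose. The lists of protein synthesis and of the proteasome stayed within 2-fold. No member of the ribosomal protein (22 genes), ribosome biogenesis (57), tRNA synthetase (33) or proteasome (46) lists passed it. Their medians were -0.10 for ribosomal proteins, -0.27 for ribosome biogenesis and -0.16 for tRNA synthetases. Of 116 peptidase genes, 12 were higher, 10.3%, and 3 lower, 2.59%, against 10.9% and 5.16% over all genes.

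Most genes that were higher on fructose without areB were also higher on fructose with it. Over the 7646 genes past the filter in both strains, 785 were higher in areBΔ and 1186 in wild type, and 689 were shared, 87.8% of the areBΔ genes and 58.1% of the wild type genes. Wild type itself had 17.2% of its 7985 genes past the filter higher and 6% lower. No gene higher in areBΔ was lower by 2-fold in wild type. Of genes that were lower, 389 in areBΔ and 432 in wild type, 256 were shared, 65.8% of the areBΔ genes and 59.3% of the wild type genes, and 10 of the 389 were higher in wild type. In the 785 genes the median log2 ratio was 1.81 in areBΔ and 2.24 in wild type, and in the 1186 genes chosen by wild type it was 1.17 in areBΔ and 1.85 in wild type. The ratios of the strains correlated across these genes, with Pearson's r of 0.84 and Spearman's rho of 0.77. Genes are not independent replicates, and the groups do not share libraries.

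**Figure D4:**
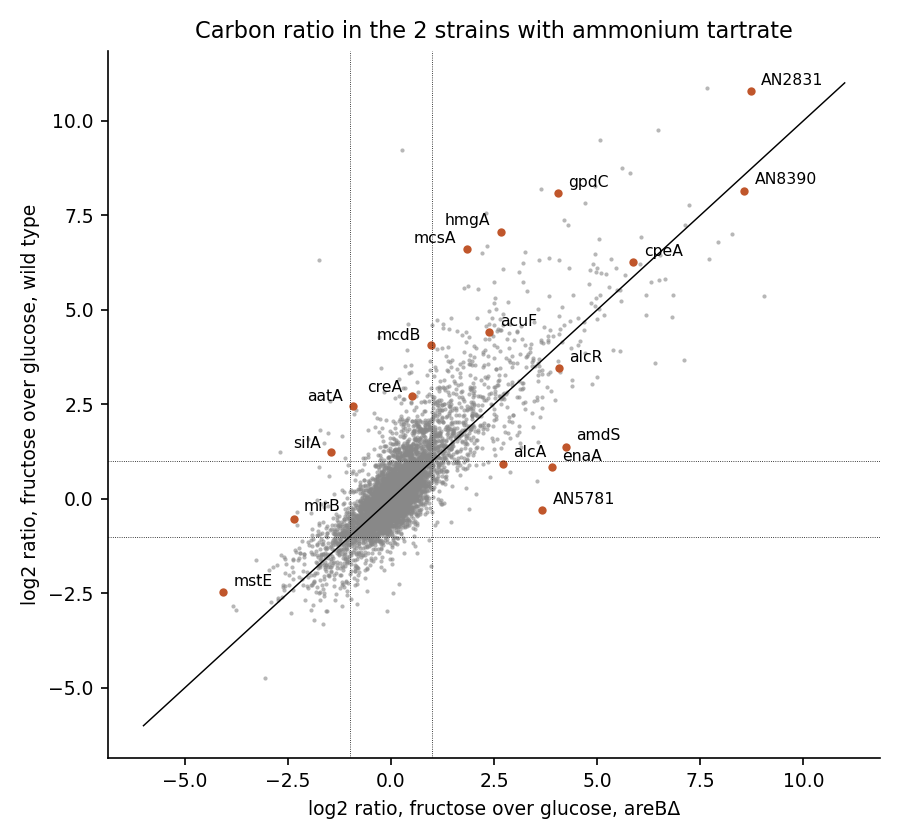
Log2 ratio of fructose over glucose in wild type (vertical) against that in areBΔ (horizontal), both with ammonium tartrate, with 1 point for each of 7646 genes, the diagonal where both are equal and dotted lines at 2-fold. Points lie along the diagonal, with a tail above it, where mcsA, hmgA and gpdC are marked, and a thinner one below it, where AN5781, enaA and amdS are marked.

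The named groups showed where the responses lay side by side. Over all genes 10.9% were higher and 5.16% lower in areBΔ, and 17.2% were higher and 6% lower in wild type. The ethanol list had 7 members higher in areBΔ and 4 in wild type, with medians of 2.89 in areBΔ and 2.19 in wild type. For alcA the means were 716 on fructose and 108 on glucose in areBΔ, and 78.97 on fructose and 40.98 on glucose in wild type. For amdS they were 881 on fructose and 45.8 on glucose in areBΔ, and 227 on fructose and 86.7 on glucose in wild type. Both were thus higher in areBΔ than in wild type on fructose. The acetate list had 6 members higher in areBΔ and 11 in wild type (medians 0.89 in areBΔ and 1.57 in wild type), and the fatty acid list 7 in areBΔ and 14 in wild type (medians 0.84 in areBΔ and 1.57 in wild type). The iron list had 9 members lower in areBΔ and 4 in wild type (medians -0.98 in areBΔ and -0.32 in wild type). The gene hmgA stood at 59.8 on fructose and 8.54 on glucose in areBΔ, against 1631 on fructose and 11.2 on glucose in wild type. Its log2 ratios were 2.67 in areBΔ and 7.07 in wild type, with no test for this gene. The repressor gene creA had 411 on fructose and 62.1 on glucose in wild type, a log2 ratio of 2.71 against 0.52 in areBΔ.

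Whether the carbon response differed between the strains was tested per gene over all 8593 genes with a standard error, as the difference of the deposited log2 fold changes of areBΔ over wild type on fructose and on glucose. By this 2-sided Wald test with Benjamini-Hochberg adjustment no gene passed an adjusted p of 0.05, and the smallest adjusted p was 0.747. At an unadjusted p under 0.05 the response was above wild type in areBΔ for 32 genes (0.372%) and below it for 80 genes (0.931%). The median standard error of the difference was 0.66 on the log2 scale, and the deviates of these moderated fold changes had a robust SD of 0.66, below the 1 that the test assumes. A p over the threshold does not show that the strains responded alike. With the deviates divided by that SD, 16 genes passed, 8 in each direction, and with ratios of group means in place of the deposited fold changes 10 did, 1 above and 9 below. Among both sets was AN5781, whose response was above wild type in areBΔ by 3.34 ± 0.85 (SE), with an unadjusted p of 8.69e-05 and an adjusted p of 0.747. Its means were 7181 on fructose and 563 on glucose in areBΔ, and 931 on fructose and 1149 on glucose in wild type. For AN5781, and for mcsA, mcdB, aatA, ngn26 and enaA below, the errors were not the gene's own on both sugars.

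A pair of genes of propionyl-CoA disposal is given here, with no test of that route as a group. The response of mcsA was below wild type in areBΔ by a difference of -2.84 ± 1.13 (SE, unadjusted p 0.012, adjusted p 1.00), with 40.01 on fructose and 10.4 on glucose in areBΔ and 459.7 on fructose and 3.71 on glucose in wild type. The 2-methylcitrate dehydratase gene mcdB, of the same route, had a difference of -2.45 ± 0.98 (unadjusted p 0.012, adjusted p 1.00). Its means were 188 on fructose and 95.5 on glucose in areBΔ, and 1260.5 on fructose and 73.6 on glucose in wild type. In both genes fructose stood further above glucose in wild type. The penicillin acyltransferase gene aatA had a difference of -2.66 ± 1.00 (unadjusted p 0.0080, adjusted p 1.00). In areBΔ it had 12.2 on fructose and 23.8 on glucose, and in wild type 64.98 on fructose and 10.95 on glucose. The siderophore gene ngn26, an ortholog of A. fumigatus sidG, had 7.17 on fructose and 14.3 on glucose in areBΔ, against 78.8 on fructose and 15.8 on glucose in wild type (difference -2.53 ± 0.89, unadjusted p 0.0044, adjusted p 1.00). For these genes the areBΔ mean on fructose was below that of wild type. In the other direction stood enaA, with a difference of 2.60 ± 0.84 (unadjusted p 0.0021, adjusted p 1.00) and wild type means of 37.5 on fructose and 20.5 on glucose. For creA the difference was -1.81 ± 0.91 (unadjusted p 0.048, adjusted p 1.00).

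The genes past 2-fold in areBΔ with ammonium tartrate overlapped widely with those past it with urea. With urea 823 of 7817 genes were higher on fructose (10.5%) and 364 lower (4.66%). Over the 7686 genes past the filter with both nitrogen sources, 805 were higher with ammonium tartrate, 774 with urea and 637 with both, 79.1% of the ammonium tartrate genes and 82.3% of the urea genes. Of the lower genes, 370 with ammonium tartrate and 350 with urea, 258 were shared, 69.7% of those with ammonium tartrate and 73.7% of those with urea. Pearson's r of the log2 ratios across genes was 0.92 and Spearman's rho 0.85. No test of the difference was possible, since both sides are group means. The ethanol list had 7 higher members with ammonium tartrate and 7 with urea, and the iron list 9 lower ones with ammonium tartrate and 7 with urea. For niaD the means were 6.57 on fructose and 50.7 on glucose with ammonium tartrate, and 62.4 on fructose and 127 on glucose with urea.

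**Figure D5:**
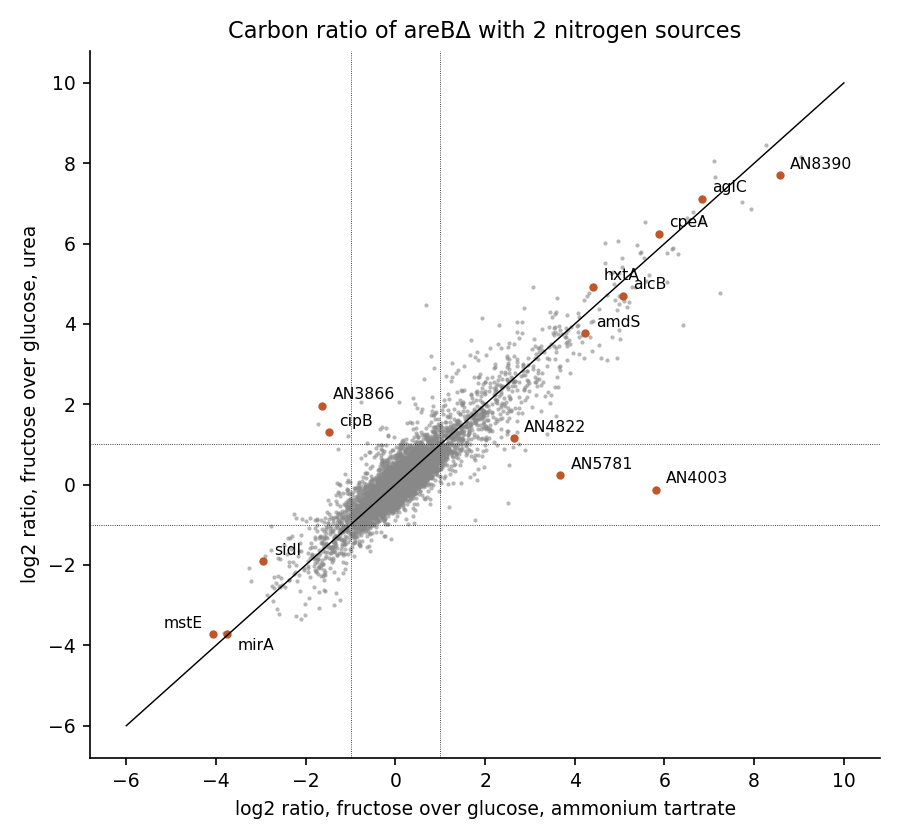
Log2 ratio of fructose over glucose in areBΔ with urea (vertical) against that with ammonium tartrate (horizontal), with 1 point for each of 7686 genes, the diagonal where both are equal and dotted lines at 2-fold. Most points follow the diagonal, AN4003 and AN5781 stand well below it, AN4822 stands below it by less, and AN3866 and cipB stand above it. AN2831 is under the filter with urea and is not drawn.

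A small set of genes with a carbon difference under ammonium tartrate had far lower levels with urea. All were picked after their values were seen. AN2831, AN4003 and mdhB were among the 10 genes whose log2 ratio with ammonium tartrate most exceeded that with urea, and AN4822 was added for its annotation. AN2831 had 3626 on fructose and 7.60 on glucose with ammonium tartrate, and 0.901 on fructose and 0.343 on glucose with urea. AN4003, a putative tartrate dehydrogenase gene, had 2069.8 on fructose and 36.04 on glucose with ammonium tartrate, and 9.69 on fructose and 10.6 on glucose with urea. AN4822, annotated in the same way, had 4602 on fructose and 737 on glucose with ammonium tartrate, and 42.7 on fructose and 18.5 on glucose with urea. These genes stood far above their glucose level on fructose, with log2 ratios of 8.72, 5.81 and 2.64. The same held for a malate dehydrogenase gene. This gene, mdhB, had 77.4 on fructose and 1.34 on glucose with ammonium tartrate, and 0.278 on fructose and 0 on glucose with urea. The media with ammonium were also those with tartrate, so the ions cannot be told apart. In wild type with ammonium tartrate AN2831 had 8957 on fructose and 4.11 on glucose, and AN4003 had 9491 on fructose and 23.01 on glucose. AN5781 stayed under 2-fold with urea, at 1073 on fructose and 906 on glucose. In the opposite direction, cipB, of a putative oxidoreductase, had 26.04 on fructose and 74.97 on glucose with ammonium tartrate, and 33.2 on fructose and 12.9 on glucose with urea.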

How the data were processed

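RNA of 24 libraries was sequenced as paired reads of 100 bp after depletion of ribosomal RNA and 14 cycles of amplification, per the labels' protocols. Per the submitters' processing notes, HTSeq 0.9.1 and DESeq2 1.16.1 were used, with FastQC, Trimmomatic and GATK. The aligner, build and annotation count as not given in the sources used here. The authors deposited 1 table of 8728 genes. Its signal columns are the authors' means of normalized counts for each group, its ratio columns the authors' fold changes of areBΔ over wild type, and its p-value columns the authors' adjusted p for each medium, as deposited. Depth per library is unknown, so no interval or limit for a count of 0 is given.

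From these, log2 ratios of the areBΔ group means were computed with a pseudocount of 1 and a filter of a higher mean of at least 10. Standard errors were recovered by inverting the adjustment of each adjusted p and dividing the log2 fold change by its normal deviate. A gene had its own error in 8274 cases on fructose and 1265 on glucose, and 7328 on glucose were borrowed from the gene's other comparisons. Where both were its own, they differed by at most 0.1 for 99.76% of 1250 genes. The recovery was tested on simulated data, in which each gene had the same error in all media and fold changes were not moderated. The borrowing of errors between media was thus not tested. The 89 genes without an adjusted p had no error and no test. The strain difference was a 2-sided Wald test with Benjamini-Hochberg adjustment over the 8593 genes with both errors.

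The comparison, the 46 gene lists (14 by product words in the table's descriptions) and the rules were chosen with earlier results of these data known. Of the listed symbols 489 were matched in the table, 7 through RefSeq and 233 not. Named genes were those with a symbol and the 15 highest and 15 lowest log2 ratios at a mean of at least 50, 5 of each without a symbol, up to 5 per list, fixed regulators, and up to 10 per direction with the lowest p of the strain test. Further list members and the genes set beside urea were named after their values were seen. Promoters were not analysed here and no motif was searched. Alternatives in pseudocount, filter, scaling, fold and error were tried. Python 3.11.15 with numpy 2.4.6, pandas 2.3.3 and scipy 1.17.1 was used.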

Additional observations from a re-analysis of the deposited data

How the results depend on the processing

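Against 853 higher and 405 lower genes, a filter at a mean of 50 left 509 higher and 266 lower, a 4-fold limit 360 higher and 63 lower, and 3 recovered standard errors, an alternative added after seeing the data, 328 higher and 97 lower. The other 7 alternatives moved each count by less than 1.5 times, to 651 to 1029 higher and 298 to 462 lower genes, and the share of higher genes stayed between 65.7 and 70.9% under another pseudocount, filter or scaling, with 67.8% as reported. The number of genes whose response differed between the strains was 0 of 8593, and 0 also with recentred fold changes. It was 0 of 6263 at a mean of at least 50. It was also 0 of the 1250 genes with their own errors on both sugars, but these did not include AN5781. With ratios of group means it was 10, and with deviates divided by their robust SD it was 16. The cause was not tested. No list median changed by more than its spread in 230 recomputations, and for the log2 ratios of named genes 44 recomputations did, 960 did not, and none turned a sign. Rescaling to the same sum moved the median of all genes to 0.09. No paired analysis was possible because the table holds group means and no value per library, so the replicate block and the leaving out of each replicate were not run. The means limit precision, since depth and spread on each sugar are unknown.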

Other observations

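Genes that were higher on fructose in areBΔ with ammonium tartrate stood beside each other in places. In the RefSeq gene order of assembly ASM1142v1 (8257 identifiers matched), 28 runs of at least 3 neighbouring genes were all higher, 96 genes in all, and 5 runs of 3 genes were all lower. How many runs would arise without any link between neighbours was not tested. The longest run was 6 genes, from AN2667 to AN2662, with log2 ratios from 1.68 to 3.16. It holds AN2664, a putative beta-xylosidase gene, with 148 on fructose and 21.7 on glucose, and AN2666, a putative oxidoreductase gene, with 86.9 on fructose and 11.2 on glucose. A run of 5 genes held AN5032, mdhB, AN5030, AN5029 and ppoC. In it AN5030, with domains of an NAD-dependent dehydrogenase, had 324 on fructose and 0.594 on glucose, while AN5032 and AN5029, with domains of transporters, had 87.2 and 47.5 on fructose and were listed at 0 on glucose. With urea, where no tartrate was present, AN5030 had 0.267 on fructose and was listed at 0 on glucose.

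Other runs followed known clusters. The ethanol genes alcA, alcR and alcP formed a run with log2 ratios from 2.72 to 4.99, and the tyrosine breakdown genes maiA, fahA and hmgA one from 1.76 to 2.67. The activator gene farB stood with AN1426, AN1427 and AN1428 in a run of 4 from 1.95 to 2.54, in which AN1426, an ortholog of serine carboxypeptidases, had 83.2 on fructose and 16.2 on glucose. Among the lower runs, sidI, AN0608 and sidC and the run of AN6237, sidD and sidH held siderophore genes. Another lower run joined micA, AN3395 and the P450 gene CYP620D1 of a secondary metabolite cluster, with CYP620D1 at 11.2 on fructose and 83.3 on glucose in areBΔ, and 7.35 on fructose and 8.94 on glucose in wild type.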
